A study of Mus musculus with 12 samples.

Results

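The genes described here encode 10 proteins of the SMC (structural maintenance of chromosomes) complexes, found by symbol among 55866 gene symbols of the deposited tables. They are the cohesin genes Smc1a, Smc3, Rad21, Stag1 and Stag2, the cohesin loader gene Nipbl, the condensin genes Smc2 and Smc4, and Smc5 and Smc6. Smc3 and Smc4 were chosen because they were already known to be much higher in the rod libraries than in whole retina in these data, so the level of the members in the 2 fractions is given as a description. All 10 were measured in both tables, and all 10 passed the filter on low values in every comparison. RNA came from retinas of 2-month-old mice in 4 groups of 3 libraries, rod TRAP and retina of each of 2 genotypes. Both genotypes carried RiboTag and i75-Rod-Cre, a Cre that acts in rods. One genotype was Abca4-/- (knockout), lacking a retinoid transporter of the photoreceptor outer segment, and the other was its Abca4+/+ littermate (control). TRAP (translating ribosome affinity purification) pulls down ribosomes that carry a tag only in cells where the rod Cre has acted, together with their messages, and the retina libraries are the lysate before that step. Tissue was frozen after perfusion with cycloheximide, and cDNA was made from 10 ng of TRAP RNA and from 5 ng of lysate RNA. Pull-down and RNA input therefore cannot be told apart in a comparison of the fractions, and nothing in the labels says whether a library was made from 1 animal or from a pool. P-values measure the spread between these libraries.

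SMC proteins are long ATPases that fold back on themselves into an antiparallel coiled coil and work in pairs. SMC1A and SMC3 form a ring closed by the kleisin RAD21 and carry STAG1 or STAG2. This ring, cohesin, holds sister chromatids together in dividing cells and extrudes DNA loops in all nuclei, stopping at sites bound by CTCF. Condensin, built on SMC2 and SMC4, compacts chromosomes for division, and the complex of SMC5 and SMC6 acts in DNA repair and replication. Rods are neurons that have left the cell cycle, and mouse rods pack their heterochromatin in the centre of the nucleus.

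The targeted gene was examined as a check of the labels. Abca4 had 53193 to 61017 scaled counts in control rod TRAP and 37619 to 38929 in control retina. The libraries labelled knockout had 195, 365 and 13156 in rod TRAP and 153, 366 and 8124 in retina, so both libraries labelled knockout replicate 3 kept far more Abca4 than the others. They were kept under their label, and results are also given without them. A scaled count is a read count multiplied by the authors so that the libraries of a fraction have 1 common total, and the totals were 17096515 to 17097707 in rod TRAP and 17860761 to 17862326 in retina. Levels below are in CPM, the scaled count relative to the total of its library, after rescaling the 12 libraries by the trimmed mean of M values (TMM). The rod list of 15 marker genes was called higher in rod TRAP for all 15 in control, while all 10 Müller glia, all 10 amacrine and all 10 ganglion cell markers were called lower.

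The coding sequences of the members have traits in common. Their GC content is not independent of the choice of genes, because it moved with the difference between fractions (below). The coding GC content of the members had a median of 42.06%, against 53.28% over 13276 genes tested between fractions in control, and 8 of the 10 were in the lowest of 10 equal groups of genes by GC (deciles). Codons for lysine and glutamate, which are frequent in long coiled coils, made up 19.84% of the members' codons by median, against 12.45% over all genes. The members were also long, with a median of 1225 codons against 477. The stretch of 30 codons that is richest in those codons is shown for 3 SMC genes that were much higher in rod TRAP. It is also shown for Mau2, the partner of Nipbl, which was not called different between the fractions after TMM rescaling. Capitals mark the lysine and glutamate codons, and bases are from the GENCODE transcripts of GRCm38.
Smc4 codons 448 to 477: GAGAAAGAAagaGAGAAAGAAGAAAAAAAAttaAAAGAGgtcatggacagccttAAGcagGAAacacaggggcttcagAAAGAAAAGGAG
Smc3 codons 180 to 209: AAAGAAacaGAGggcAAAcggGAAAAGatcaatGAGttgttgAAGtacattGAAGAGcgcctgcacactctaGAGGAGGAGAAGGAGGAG
Smc1a codons 240 to 269: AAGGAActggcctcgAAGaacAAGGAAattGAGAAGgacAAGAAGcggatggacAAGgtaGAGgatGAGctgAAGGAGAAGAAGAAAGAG
Mau2 codons 85 to 114: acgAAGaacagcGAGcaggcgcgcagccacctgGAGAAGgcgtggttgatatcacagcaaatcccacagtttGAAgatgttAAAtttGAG
The stretches hold 17, 16, 18 and 7 such codons in the order shown. Their GC contents are 38.9%, 46.7%, 46.7% and 50%. Over the whole coding sequence Smc4 has 38.62% GC and 22.78% such codons, Smc3 has 42.61% and 22.27%, Smc1a has 47.65% and 26.2%, and Mau2 has 56.78% and 10%. These 4 genes were picked with their values known and do not stand for the set. Stag2 and Nipbl, also far higher in rod TRAP, have 15.06% and 16.08% such codons. A relation of such codons to the difference between fractions was not tested.

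Promoters of 6 members (Smc1a, Smc3, Stag1, Smc2, Smc5 and Smc6) were found in RefSeq for GRCm38.p6. That of Smc3 is shown, as the promoter of a gene far higher in rod TRAP, at chr19:53600146-53600445 on the + strand, with the motif found in it in capitals, here the reverse complement of the GC box.
Smc3 promoter: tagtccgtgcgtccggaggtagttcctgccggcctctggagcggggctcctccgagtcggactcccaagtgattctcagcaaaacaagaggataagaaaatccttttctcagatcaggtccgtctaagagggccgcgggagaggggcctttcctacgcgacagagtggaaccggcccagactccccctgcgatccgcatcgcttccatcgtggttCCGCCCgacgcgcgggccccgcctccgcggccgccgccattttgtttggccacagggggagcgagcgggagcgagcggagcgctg
The GC box GGGCGG was present on either strand in 5 of the 6 member promoters and in 35.7% of 32851 promoters of the same length. CCAAT was present in 3 of the 6, and in 37.4% of all. The letters TAATCC (the core bound by CRX and OTX2, factors of photoreceptors), TTTCGCGC (E2F) and CCGGAAGT (ETS), and the NRF1 motif, were found in none of the 6 windows, and in 7.06%, 0.323%, 3.89% and 0.971% of all. These matches describe letters only.

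The core of cohesin was abundant in rod TRAP. Smc1a, the ATPase encoded on the X chromosome, had 158.9, 139 and 137.3 CPM in control rod TRAP and 26.8, 24.14 and 15.5 CPM in control retina. In knockout mice it had 146.4, 162 and 163.8 CPM in rod TRAP and 33.01, 29.48 and 42.88 CPM in retina. Every rod TRAP library was thus above every retina library. Smc3, its partner in the ring, had 311, 288.2 and 249.1 CPM in control rod TRAP and 16.22, 16.71 and 12.8 CPM in control retina. In knockout mice Smc3 had 289.2, 260.4 and 271.7 CPM in rod TRAP and 35.33, 18.21 and 21.63 CPM in retina, where knockout replicate 1 was the highest. The log2 difference between fractions (rod TRAP minus retina) was 2.80 ± 0.18 (SE, n = 3 and 3) for Smc1a and 4.26 ± 0.14 for Smc3 in control. In knockout it was 2.16 ± 0.16 and 3.48 ± 0.22. Rad21, the kleisin that closes the ring, had 306.3, 310 and 315.5 CPM in control rod TRAP and 100.8, 117.1 and 69.92 CPM in control retina. The knockout values of Rad21 were 260.9, 283.6 and 277.3 CPM in rod TRAP and 141.7, 115.1 and 147.7 CPM in retina. Its difference was the smallest among the members, at 1.81 ± 0.16 on the log2 scale in control and 1.03 ± 0.15 in knockout, and its retina level was the highest of the 10.

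Both STAG genes, which encode alternative subunits that bind the ring, were measured. Stag2, on the X chromosome, had 353.2, 340.6 and 322.2 CPM in control rod TRAP against 26.37, 22.03 and 14.55 CPM in control retina. In knockout mice Stag2 had 333.9, 334.2 and 336 CPM in rod TRAP and 53.05, 24.74 and 31.71 CPM in retina. Stag1 had 120.2, 120.7 and 113 CPM in control rod TRAP against 16.37, 15.08 and 10.87 CPM in control retina, and in knockout mice 97.29, 107.4 and 109.8 CPM against 26.74, 17.36 and 26.31 CPM. The log2 difference between fractions was 4.11 ± 0.18 for Stag2 and 3.13 ± 0.15 for Stag1 in control. Nipbl, the loader of cohesin, had 236.7, 221 and 224.2 CPM in control rod TRAP and 19.48, 20.05 and 13.18 CPM in control retina, a log2 difference of 3.77 ± 0.15. In knockout mice it had 186.8, 230.6 and 254.5 CPM in rod TRAP and 41.03, 22.77 and 19.95 CPM in retina. Nipbl thus varied more among the knockout than among the control rod TRAP libraries.

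The condensin pair differed in level. Smc4 had 92.95, 83.92 and 70.41 CPM in control rod TRAP, 3.541, 3.034 and 2.409 CPM in control retina, and the largest log2 difference of the members, 4.65 ± 0.17. In knockout mice Smc4 had 72.89, 82.51 and 79.7 CPM in rod TRAP and 9.387, 3.4 and 3.891 CPM in retina, so that replicate 1 stood apart from the other retina libraries. The log2 difference in knockout was 3.83 ± 0.30, and 4.16 without retina knockout replicate 1. Smc2, which pairs with Smc4 in condensin, was the lowest member. It had 7.651, 5.933 and 6.892 CPM in control rod TRAP, 0.5743, 0.6595 and 0.2362 CPM in control retina, 4.364, 6.073 and 7.485 CPM in knockout rod TRAP and 0.6855, 0.6711 and 0.7112 CPM in knockout retina. With 5 to 17 scaled counts in retina, its log2 differences of 2.97 ± 0.23 in control and 2.42 ± 0.25 in knockout are understated by the added 0.5 CPM. Per length, in TPM, the ratio of Smc4 to Smc2 was 16.2 ± 1.84 in control and 18.1 ± 3.37 in knockout rod TRAP (SD, n = 3). In retina Smc2 was 0.1 to 0.3 TPM in a table with 1 decimal, so the ratio was not read there.

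Smc5 and Smc6 form the pair that acts in DNA repair. Smc5 had 71.5, 67.48 and 68.28 CPM in control rod TRAP and 8.04, 7.035 and 5.15 CPM in control retina. In knockout it had 43.21, 69.32 and 70.9 CPM in rod TRAP, with replicate 1 below the others, and 8.754, 9.038 and 8.325 CPM in retina. Smc6 had 63.5, 64.41 and 59.61 CPM in control rod TRAP and 5.503, 5.848 and 3.496 CPM in control retina. In knockout it had 49.5, 58.64 and 61.61 CPM in rod TRAP and 10.65, 5.95 and 6.652 CPM in retina. The log2 differences between fractions in control were 3.37 ± 0.16 and 3.64 ± 0.18. The ratio of Smc6 to Smc5 in TPM was 0.885 ± 0.053 in control rod TRAP and 1.01 ± 0.290 in control retina (SD, n = 3), so their levels were closer than those of the condensin pair.

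**Figure D1:**
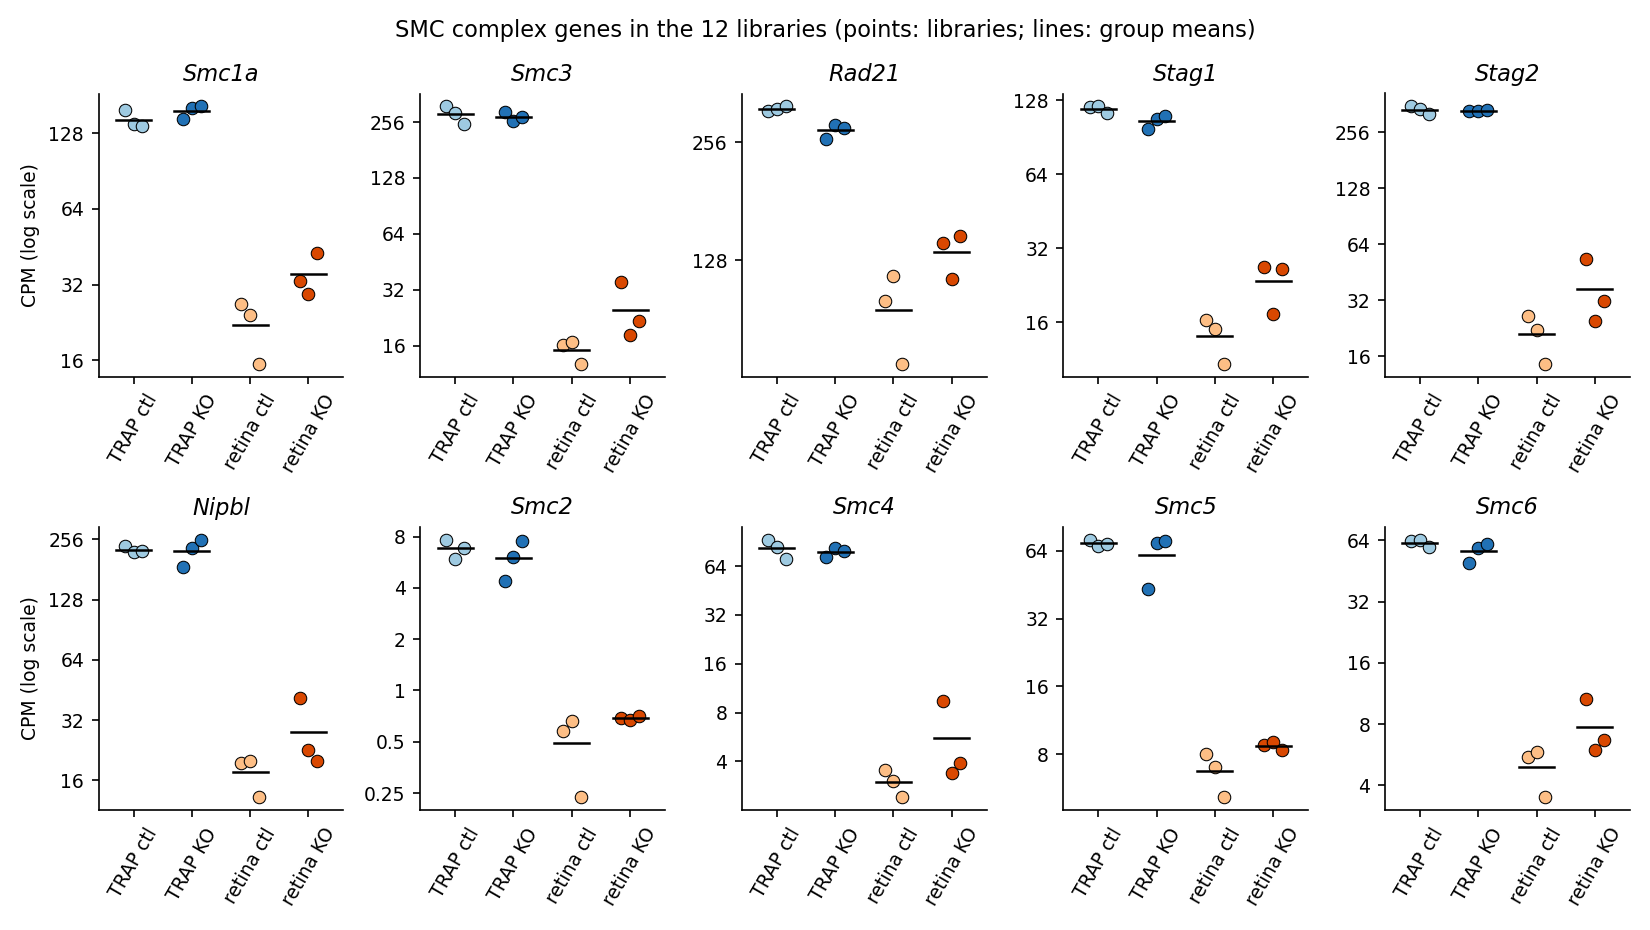
Level of each gene in CPM (log scale) in the 12 libraries, by fraction and genotype (ctl, control; KO, Abca4 knockout), with points for libraries and lines for the means of 3. In all 10 genes every rod TRAP library lies above every retina library, from Smc2 with 4.364 to 7.651 CPM in rod TRAP to Stag2 with 322.2 to 353.2 CPM.

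Per length the order of the members differed between the fractions. In control rod TRAP the TPM levels were 126.8 ± 1.06 for Rad21, 106.7 ± 11.9 for Stag2, 94.03 ± 10.9 for Smc3, 53.97 ± 5.65 for Smc1a, 37.03 ± 1.70 for Nipbl, 33.7 ± 1.47 for Stag1, 32.87 ± 5.12 for Smc4, 24.67 ± 0.808 for Smc5, 21.8 ± 0.781 for Smc6 and 2.03 ± 0.252 for Smc2 (SD, n = 3). Stag2 and Smc3 overlapped, as did Stag1 and Smc4, and the other neighbours in that order did not overlap. In control retina the order was Rad21 with 46.77 ± 16.0 TPM, then Smc1a with 9.23 ± 2.93, Stag2 with 8.47 ± 2.58, Smc3 with 6 ± 1.25, Stag1 with 4.63 ± 1.33, Smc6 with 3.8 ± 1.82, Smc5 with 3.6 ± 0.985, Nipbl with 3.33 ± 0.961, Smc4 with 1.37 ± 0.231 and Smc2 with 0.167 ± 0.0577. There every neighbour overlapped except Rad21 above Smc1a, Nipbl above Smc4 and Smc4 above Smc2. The partners of the cohesin ring changed places, since Smc3 to Smc1a was 1.74 ± 0.0293 in control rod TRAP and 0.671 ± 0.113 in control retina (SD, n = 3). Stag2 to Stag1 was 3.16 ± 0.278 in control rod TRAP and 1.82 ± 0.0966 in control retina.

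Across all genes tested between fractions in control, Smc4 ranked 2 and Smc3 ranked 5 of 16286 from the top, Stag2 ranked 10, Nipbl 31, Smc6 53, Smc5 102, Stag1 202, Smc2 282, Smc1a 386 and Rad21 1564. In knockout Smc4 ranked 1 and Smc3 ranked 4 of 16036. All 10 were called higher in rod TRAP in both genotypes, where 36.6% of genes in control and 30.4% in knockout were called higher by limma adjusted p, and nothing is read from that count because the members were chosen on this contrast. All 10 also had fractions that did not overlap, where 39.1% and 33.7% of genes were higher without overlap. For scale, the 15 rod marker genes had a median log2 difference of 1.17 in control, with a range of 0.69 to 3.98, and the members had 3.51, with a range of 1.81 to 4.65. Fewer cells of a type and less RNA per cell cannot be told apart in the retina libraries. Under the authors' scaling alone the median of all genes moved from −0.03 to −0.62 on the log2 scale, Smc4 to 4.05 and Rad21 to 1.16 in control and 0.49 in knockout, all still above 0.

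Base composition moved with the difference between fractions. Over 13276 genes with a coding sequence, the log2 difference in control and the coding GC content had a Spearman correlation of −0.503 across genes, which share the same 6 libraries and are not independent. The decile of genes lowest in GC had a median log2 difference of 1.84, and the decile highest in GC had −0.90. All 10 members lay above the median of their own decile, by 1.12 (Smc2) to 2.81 (Smc4) and by a median of 1.86. Smc4 and Smc3 were above 99.9% and 99.7% of the genes in that decile. Nothing is read from these positions, because the members were chosen on this contrast. In knockout the 10 lay above by 0.64 to 2.62. With each library centred on the median of 20 bins of GC, an alternative chosen after the data were seen, the difference in control shrank to 2.59 for Smc4, 2.20 for Smc3, 2.05 for Stag2, 1.74 for Smc5, 1.70 for Nipbl, 1.58 for Smc6, 1.06 for Stag1 and 0.91 for Smc2. It fell less for Smc1a, from 2.80 to 2.13, and for Rad21, from 1.81 to 1.36. The part of base composition in the difference was not tested further.

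**Figure D2:**
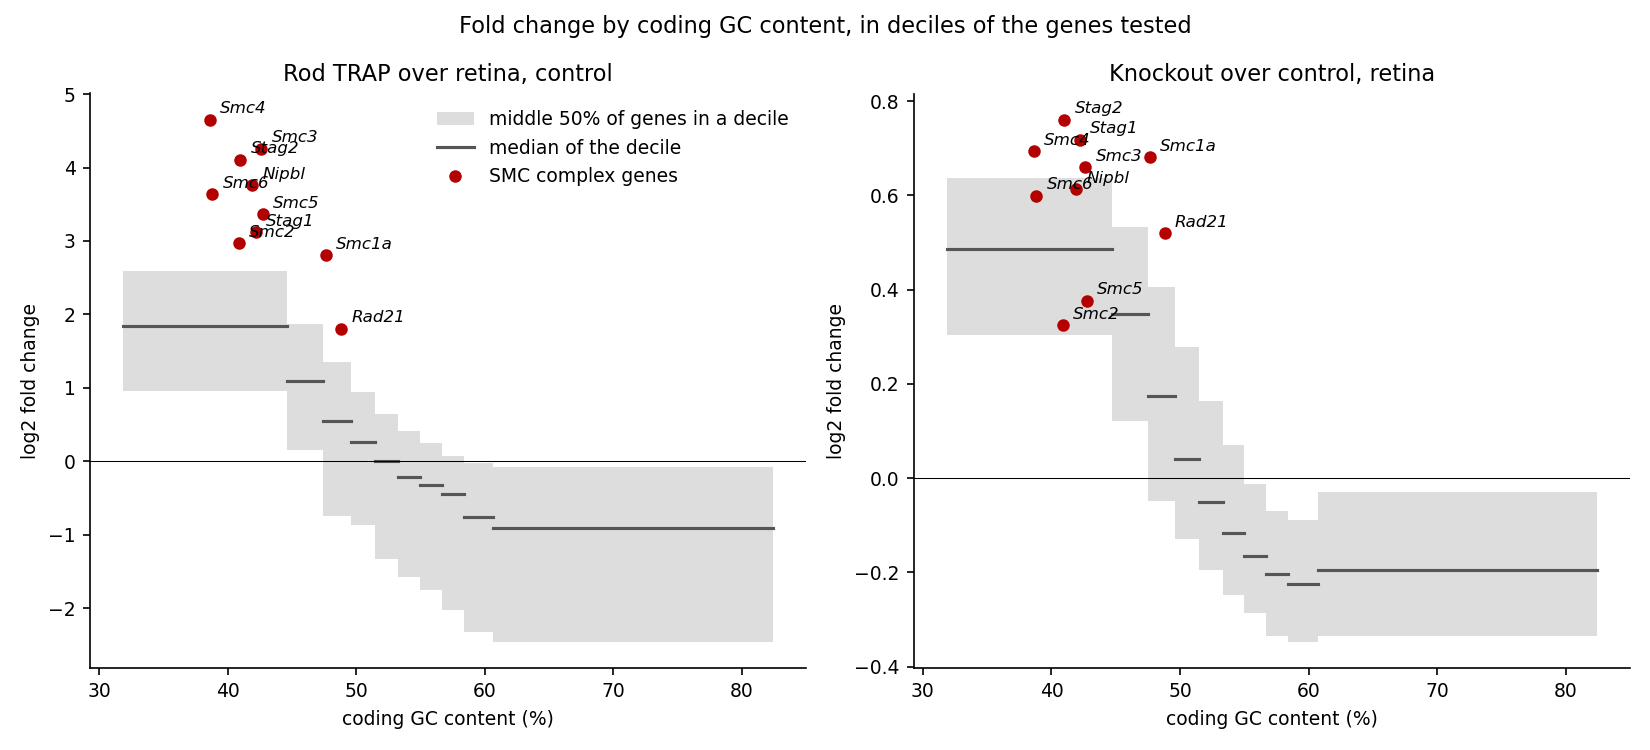
Log2 fold change against coding GC content (percent), with the genes tested split into deciles by GC: dark lines are the median of a decile, grey areas its middle 50%, red points the SMC complex genes. On the left (rod TRAP over retina, control) all 10 genes lie above their decile's median by at least 1.12, and on the right (knockout over control, retina) 8 of 10 lie above by a median of 0.19 for the 10.

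The question of the study was what changes in rods and in the retina without ABCA4. In rod TRAP none of the 10 members was called different between knockout and control, where 148 of 13104 genes (1.13%) were called by limma, and none had an unadjusted p under 0.05, where 10.4% of genes did. Log2 differences (knockout minus control) ran from −0.18 for Smc5 to 0.15 for Smc1a, with limma adjusted p from 0.523 to 0.999. The intervals were narrow for the abundant members. Smc3 differed by −0.01, with a 95% interval of −0.23 to 0.21, and Stag2 by 0.02 (−0.16 to 0.19). Nipbl differed by −0.0005 (−0.22 to 0.21) and Smc4 by −0.03 (−0.26 to 0.20). In 2 members the groups did not overlap, where 9.07% of genes were lower without overlap. Rad21 was lower in all 3 knockout libraries, by a log2 difference of −0.15 (−0.31 to 0.01), and Stag1 by −0.14 (−0.31 to 0.03). In TPM the groups of Stag1 overlapped, with 25.6 to 34.4 in knockout and 32.1 to 35 in control. Smc2 was the least certain, at −0.17 (−0.58 to 0.25). Without the library labelled knockout replicate 3, the members ran from −0.32 to 0.13 and none was called, with a smallest limma adjusted p of 0.499. Without knockout replicate 1, 2 members had an unadjusted limma p under 0.05 and none was called, with a smallest limma adjusted p of 0.198.

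In retina all 10 members were higher in knockout by their mean, and none was called. Log2 differences ran from 0.33 for Smc2 to 0.76 for Stag2, with a median of 0.64, while 47.8% of genes were above 0. Called genes numbered 18 of 16964 (0.106%), and limma adjusted p of the members ran from 0.400 to 0.571. Unadjusted limma p was under 0.05 for 6 members, Smc1a, Smc3, Rad21, Stag1, Stag2 and Nipbl, where 12.0% of genes had such a p. Stag1 differed by 0.72 (95% interval 0.20 to 1.24), Smc1a by 0.68 (0.16 to 1.21), Smc3 by 0.66 (0.11 to 1.21) and Rad21 by 0.52 (0.05 to 0.99). Among the others Smc4 differed by 0.69 (−0.07 to 1.46), Smc6 by 0.60 (−0.02 to 1.22) and Smc5 by 0.38 (−0.11 to 0.86). On the scaling of the retina libraries alone, groups were apart for 7 members (Smc1a, Smc3, Stag1, Nipbl, Smc2, Smc5 and Smc6). All were higher in the knockout group, where 10.4% of genes were higher without overlap. In the CPM of all 12 libraries Nipbl overlapped, with 19.95 in knockout replicate 3 and 20.05 in control replicate 2. In scaled counts Smc2 and Smc5 overlapped, and Smc6 tied at 133. Smc5 had 166 in knockout replicate 1 and 168 in control replicate 1. Control replicate 3 had the lowest level of all 10 members in retina, and knockout replicate 1 had the highest of 6 members (Smc3, Stag1, Stag2, Nipbl, Smc4 and Smc6). Without control replicate 3 the median over the members was 0.45 and 1 had an unadjusted p under 0.05. Without knockout replicate 1 the median was 0.40, with 2, and without the library labelled knockout replicate 3 it was 0.64, with 5.

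**Figure D3:**
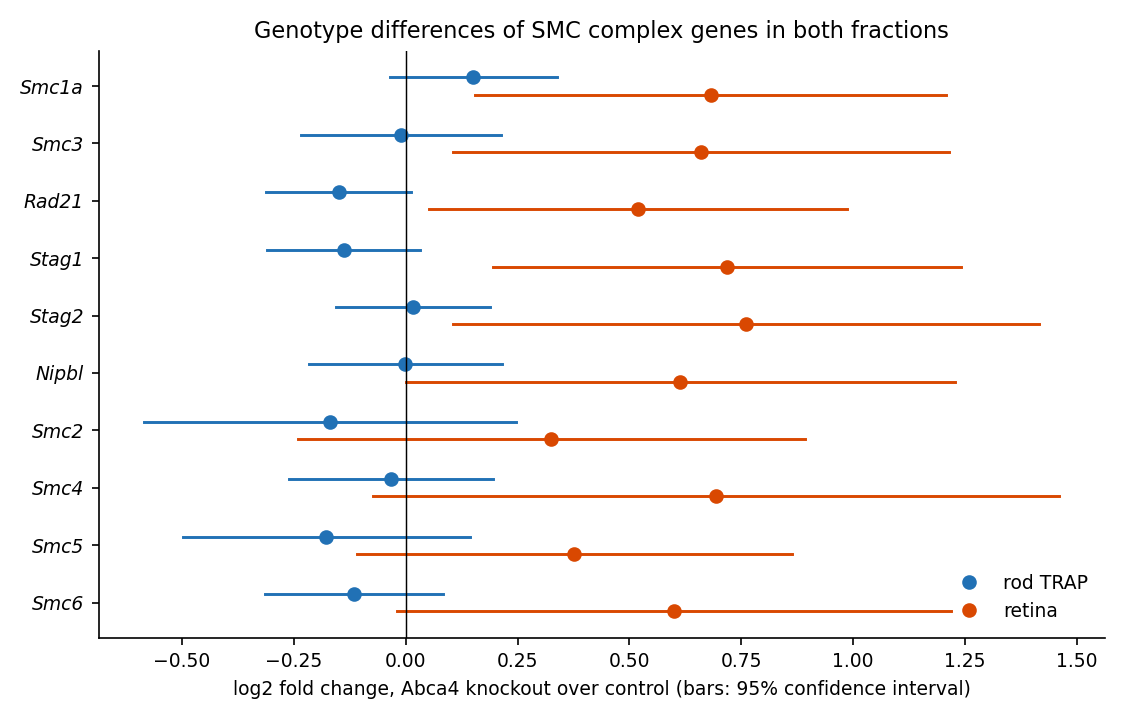
Log2 fold change of knockout over control for each gene, in rod TRAP (blue) and retina (orange), with 95% confidence intervals from limma. In rod TRAP every interval spans 0, and in retina those of Smc1a, Smc3, Rad21, Stag1, Stag2 and Nipbl lie above 0, although no gene passed adjustment.

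The retina difference moved with base composition in these libraries. Over 13627 genes the log2 genotype difference in retina had a Spearman correlation of −0.581 with coding GC content across genes, against 0.0999 over 10748 genes in rod TRAP. The decile of genes lowest in GC had a median log2 difference of 0.49 in retina. Relative to the median of their own decile the members were between −0.16 and 0.51, with 8 of 10 above it. By library, and relative to the control mean, the median of the members was 0.99, 0.29 and 0.50 in knockout replicates 1 to 3 and 0.19, 0.14 and −0.39 in control, on a log2 scale. The decile of genes lowest in GC gave 0.58, 0.26 and 0.61 in knockout and 0.20, 0.11 and −0.31 in control. Both orders had control replicate 3 lowest, and the same libraries were above and below the control mean. Knockout replicate 1 of retina also differed in other genes: Rec8, a kleisin of meiotic cohesin, had 1 scaled count there and 130 to 244 in the other 5 retina libraries. With the values centred by GC the members ran from −0.17 for Smc2 and −0.12 for Smc5 to 0.46 for Smc1a, with a median of 0.18. The part of base composition in the retina difference was not tested beyond these values.

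**Figure D4:**
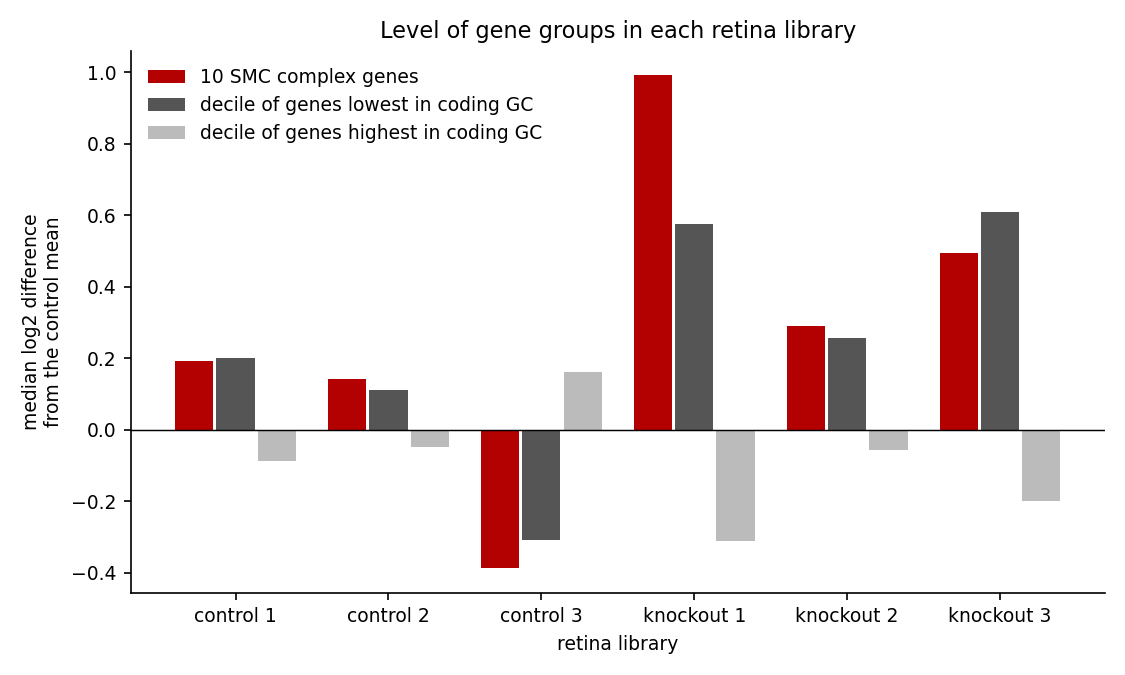
Median log2 difference from the control mean in each of 6 retina libraries, for the 10 SMC complex genes (red), the decile of genes lowest in coding GC (dark grey) and the decile highest (light grey). The red and dark bars have the same sign in every library, from −0.39 and −0.31 in control replicate 3 to 0.99 and 0.58 in knockout replicate 1.

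A direct test asked whether the genotype difference differed between the fractions. None of the 10 members was called in the interaction of genotype and fraction, where 1 of 17273 genes (0.00579%) was. The interaction (rod TRAP difference minus retina difference, log2) was negative for all 10, from −0.49 for Smc2 to −0.88 for Stag1, with limma adjusted p from 0.407 to 0.584, where 50.6% of genes were above 0. Unadjusted limma p was under 0.05 for 6 members, where 11.3% of genes had such a p. Base composition moved with this contrast too. Over the 79.49% of tested genes with a coding sequence, the interaction and coding GC content had a Spearman correlation of 0.551 across genes, and the decile lowest in GC, which holds 8 of the members, had a median of −0.54. Relative to their own decile the members lay between −0.49 and 0.05, with a median of −0.19 and only Smc2 above it. Without retina control replicate 3 the members' median was −0.50 and 2 had an unadjusted limma p under 0.05. Without retina knockout replicate 1 the median was −0.52, with 4, and Smc4 became −0.36 and Nipbl −0.37. Without both libraries labelled knockout replicate 3 the range was −0.43 to −0.94, and the smallest limma adjusted p was 0.708. The same values seen by genotype are the smaller fraction difference in knockout than in control, which held for all 10 members.

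**Figure D5:**
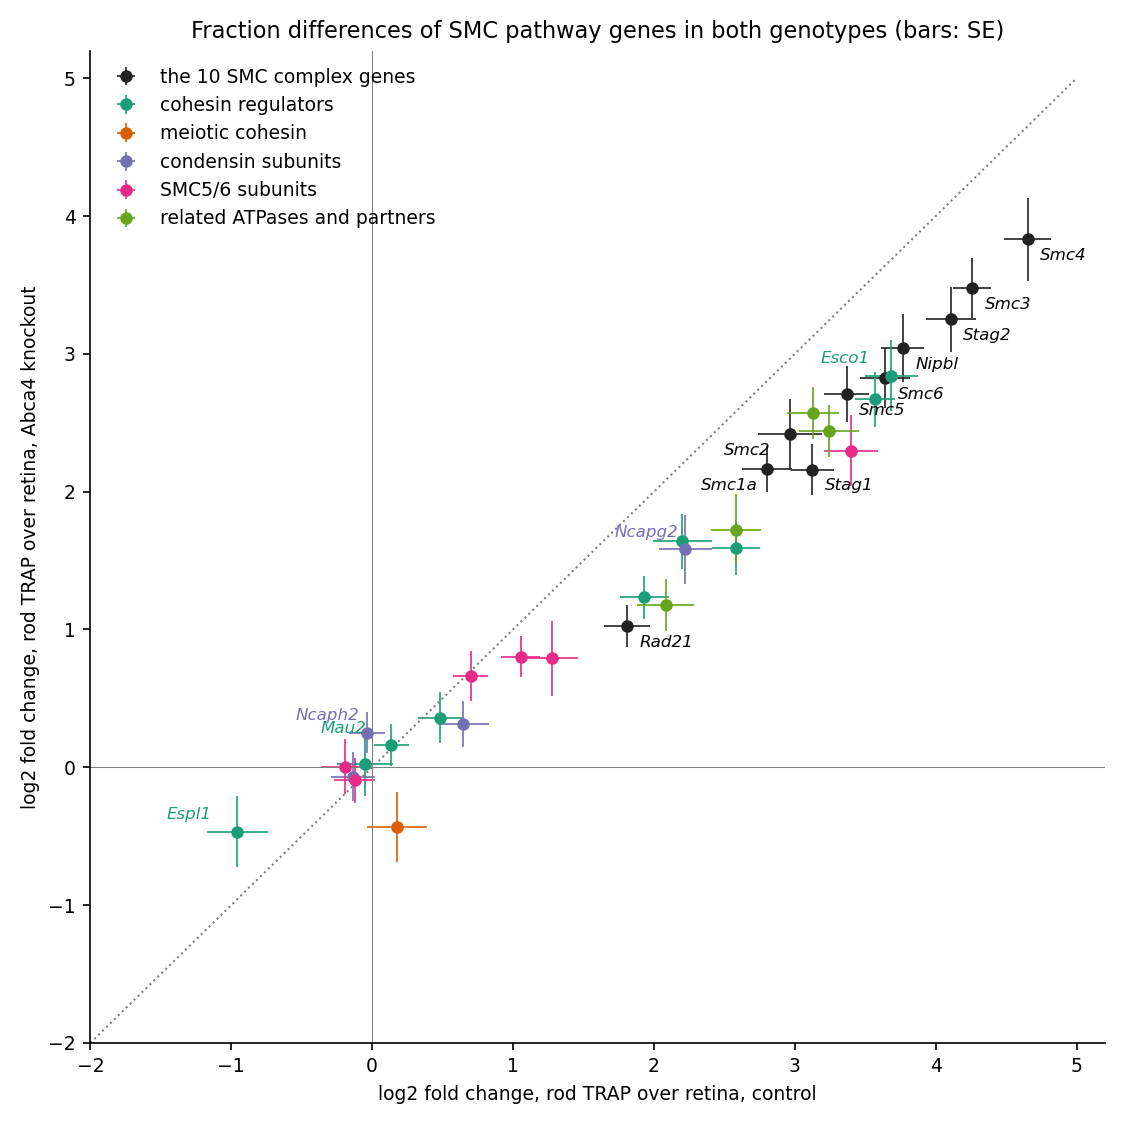
Log2 fold change of rod TRAP over retina in knockout (vertical) against control (horizontal), with SE, for the 10 SMC complex genes (black) and the other pathway genes tested in both genotypes (colours by list). All black points lie below the dotted line of equal change, with Smc4 at 4.65 and 3.83 the farthest out.

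The rest of the pathway was read from 33 other genes. Of these, 26 were tested between fractions in control. In rod TRAP 17 were called higher, 2 lower and 7 not called, where 36.6% of all genes were called higher and 38.8% lower. The 2 called lower, Rec8 and Espl1, passed the filter on low values only through retina. Sgo1, called higher and named after its values were seen, passed it only through rod TRAP. The filter thus fixed the direction of any call of these genes, and nothing is read from it. In knockout 14 of 24 tested were called higher and none lower, where 30.4% of all genes were called higher and 33.7% lower. Under the authors' scaling alone the control split was 14 higher and 8 lower, and with GC centred 15 and 6. Of the 12 regulators of cohesin, 10 were tested and 7 were called higher. Esco1, which acetylates SMC3, was higher by 3.69 ± 0.19 on the log2 scale, and Wapl, which releases cohesin from DNA, by 3.57 ± 0.14. Pds5a and Pds5b, the regulators that bind cohesin with WAPL, were higher by 2.58 ± 0.17 and 2.20 ± 0.21. In scaled counts, Wapl had 3253 to 3488 in control rod TRAP and 358 to 528 in control retina. Mau2, which joins NIPBL in the loader and was named after its values were seen, did not follow its partner. Mau2 had 1055 to 1135 scaled counts in control rod TRAP and 1402 to 1916 in control retina, lower in rod TRAP without overlap. After TMM rescaling its log2 difference was 0.14 ± 0.12 (limma adjusted p = 0.337), with a 95% interval of −0.14 to 0.41. Its direction thus depends on the scaling. In TPM it had 30.7 ± 1.66 and 36.33 ± 6.35 (SD, n = 3). Nipbl to Mau2 in TPM was 1.21 ± 0.0988 in control rod TRAP and 0.0907 ± 0.0147 in control retina (SD, n = 3). The 2 genes also differ in coding GC. Mau2, with 56.78%, was in a decile whose median log2 difference in control was −0.44, and it lay 0.58 above that median. Nipbl was in the lowest decile, with a median of 1.84, and lay 1.92 above it.

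The other subunits of condensin were partly absent. Ncaph and Ncapg, named after their values were seen, encode the kleisin and a HEAT subunit of condensin I and reached at most 10 and 3 scaled counts in the 12 libraries. Of the 4 subunits tested, Ncapg2 was higher in rod TRAP by 2.22 ± 0.19 on the log2 scale and Ncapd3 by 0.65 ± 0.18, both of condensin II. Ncapd2 and Ncaph2 differed by −0.13 ± 0.15 and −0.04 ± 0.13 and were not called. Ncaph2 shares 19.7% of its exon bases with Sco2 on the opposite strand, and the kit does not mark strand. Among the Smc5-Smc6 subunits 4 of 6 tested were called higher. Slf1 and Slf2, which bring the complex to DNA damage, were at 3.40 ± 0.19 and 1.28 ± 0.18. Nsmce2, the SUMO ligase, was at 1.05 ± 0.14 and Nsmce4a at 0.70 ± 0.12. Before rescaling Nsmce4a had mean scaled counts of 1625 in control rod TRAP and 1634 in control retina. In TPM it had 152.8 and 116. All 4 related genes were called higher: Smchd1, an SMC protein of the inactive X chromosome, by 3.24 ± 0.21, and the DNA break complex genes Rad50, Nbn and Mre11a by 3.13 ± 0.18, 2.58 ± 0.18 and 2.08 ± 0.20. Of the 4 meiotic cohesin genes 2 were tested. Rec8 was lower in control rod TRAP by a log2 difference of −3.83 ± 0.22, with 1 to 4 scaled counts there and 167 to 244 in retina, and Stag3 was not called. Espl1, the separase that cuts cohesin, named after its values were seen, was the other gene called lower, by −0.96 ± 0.22, with 7 to 8 scaled counts in control rod TRAP and 24 to 41 in control retina. Between genotypes none of the 33 was called, with 24 tested in rod TRAP and 25 in retina, and 3 and 5 had an unadjusted limma p under 0.05, where 10.4% and 12.0% of all genes did.

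Other genes with the profiles of Smc3 and Smc4 over the 12 libraries were found by the lowest root mean square difference of centred log2 levels, among 17273 genes. For Smc3 these were Gm5844 (0.107), Gm12346 (0.127), Hsp90aa1 (0.130), Top2b (0.137) and Dek (0.148). Hsp90aa1 encodes a cytosolic chaperone and Top2b a DNA topoisomerase. Gm5844 and Gm12346 are processed pseudogenes that share 59.4% and 76.7% of their 50-base windows with other genes, most with Hsp90aa1, which itself shares 58.5%, so the counts of all 3 are uncertain. Dek and Top2b share 17.9% and 16.1% of their windows. For Smc4 the nearest were Cep290, a gene of the photoreceptor connecting cilium (0.220), then Smc3 (0.232), Hsp90aa1 (0.265), Gm5844 (0.277) and Gm12346 (0.287). Among the members, Stag2 was in position 6 and Smc4 in position 12 for Smc3. The members themselves were free of such copies: 9 shared no 50-base window with another gene and Smc3 shared 1.56%, and only Stag2 overlapped another annotated gene, over 0.338% of its exon bases.

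Cell cycle genes were also examined, since condensin and cohesin are known from division. Mki67, Top2a, Aurkb, Bub1 and Birc5 had 0 to 9 scaled counts in every library. Of the 15 cycling genes 7 were tested between fractions in control, with a median log2 difference of 0.67. In rod TRAP 5 were called higher and none lower, where 36.6% of all genes were called higher. Summed over the 15, retina libraries held 1485 to 1616 scaled counts and rod TRAP libraries 1732 to 2030. Most of each sum was Pcna, with 844 to 1060 in retina and 1154 to 1450 in rod TRAP. The summed levels of other retinal cells' markers differed between the fractions to unlike degrees: the 10 Müller glia genes summed to 1747 to 3126 scaled counts there, against 67243 to 104905 in retina, and the 10 cone genes to 7181 to 10266 and 22886 to 37080. The 10 bipolar genes summed to 8948 to 10603 scaled counts in rod TRAP, closer to the 13355 to 26230 of the retina libraries. Gene by gene they were far lower in rod TRAP, with a median log2 difference of −4.41 in control and a range of −5.67 to 1.57. Of the 10 cone genes, 9 were called lower and 1 higher in control, and of the 10 bipolar genes 8 and 2. Of microglia and vascular genes, 9 of 10 in each list were called lower in control. Between genotypes 1 cone gene was called in rod TRAP and no gene of these lists in retina, where the list medians ran from −0.35 (vascular) to 0.08 (amacrine) and the rod median was −0.11 on the log2 scale. Smc1a and Stag2 are on the X chromosome, and the libraries differed in sex genes. Xist had 458, 0 and 441 scaled counts in retina knockout replicates 1 to 3 and 2, 0 and 124 in control, while Ddx3y on the Y chromosome had 32 to 140 in those 6 libraries. Libraries with Xist thus also held Y-linked messages. Between genotypes in retina, Stag2 (0.76) was above the highest autosomal member, Stag1 (0.72), and Smc1a (0.68) was below it, on the log2 scale, and the part of sex in these differences was not tested.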

How the data were processed

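RNA of rods (TRAP) and of retina lysate from Abca4 knockout and control mice was measured in 12 libraries, 3 in each of 4 groups, with groups and replicate numbers taken from the labels. Tools named in the submitters' processing notes, with no role or order, are CASAVA 1.8.2, HISAT2, DESeq2 and edgeR, with genome build GRCm39. The authors deposited 2 tables per gene symbol. The first holds scaled counts, a score made by the authors by multiplying read counts by 1 factor per library and rounding, so totals within a fraction are equal and do not show depth. The second holds TPM, which the authors deposited to 1 decimal. No row of counts of reads was used, so the test is limma 3.58.1 (trend, robust) in R 4.3.3, on log2(CPM + 0.5) of scaled counts rescaled by TMM (trims of 0.3 and 0.05). Genes with at least 10 scaled counts in at least 3 libraries of a fit were tested, two-sided, with Benjamini-Hochberg adjustment over all of them, and called at adjusted p under 0.05. The added 0.5 shrinks the fold changes of low genes. The fits compared genotypes within a fraction, fractions within a genotype (6 libraries each) and their interaction (12 libraries). Only the fit of genotypes in rod TRAP was run on simulated data, with independent counts drawn around the control rod TRAP means. That run does not cover the retina, fraction or interaction fits.

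Members and lists were chosen with earlier results of these data known. Named genes are the 10 members, up to 4 genes per pathway list by the size of the difference between fractions in control, every pathway gene called between genotypes, the 5 nearest profiles of Smc3 and of Smc4, and genes of the marker, cycling and sex lists given beside a result. Lists hold 15 rod genes, 15 cycling genes, 5 sex genes and 10 genes each for cone, bipolar, Müller glia, amacrine, ganglion, microglia and vascular cells. Coding sequences, lengths and chromosomes came from GENCODE M21 of GRCm38, which is not the build named by the submitters, so gene positions are not given. The promoter's position is that of the RefSeq table, in GRCm38.p6. Figures were drawn with matplotlib 3.10.9 in Python 3.11.15.

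Same-numbered rod TRAP and retina libraries deviated together from their group means (r = 0.433, 0.206 and 0.372 in knockout and 0.275, 0.200 and 0.160 in control). Each correlated best with its own number except knockout replicate 2, which correlated slightly better with another (0.229). The numbers thus probably pair the fractions, with knockout replicate 2 unsettled. The main fits did not use this pairing, and the replicate block did. No pair of replicates held identical values.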

Additional observations from a re-analysis of the deposited data

Results flagged for a closer look

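In CPM, Stag1 had genotype groups that did not overlap in either fraction, lower in knockout in rod TRAP and higher in knockout in retina. The interaction, which tests that difference, was −0.88 on the log2 scale (95% interval −1.41 to −0.35), with an unadjusted limma p that did not pass adjustment (limma adjusted p = 0.407). Stag1 was flagged for being lower in all 3 knockout libraries of rod TRAP and higher in all 3 of retina, relative to every control library. The interaction comes from those same values, so its size follows in part from that choice. In TPM the rod TRAP groups of Stag1 overlapped, with 25.6 to 34.4 in knockout and 32.1 to 35 in control, and the retina groups did not. The decile of genes lowest in coding GC, which holds Stag1, had a median interaction of −0.54, and Stag1 lay at −0.34 relative to that median, at percentile 6.3 of the decile. No group had enough libraries for a check of single outlying libraries.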

How the results depend on the processing

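The alternatives covered scaling, added constant, filter, TPM, limma settings, a replicate block, each library left out, both libraries labelled knockout replicate 3 left out, and 1 fit of all 12 libraries. Centring by coding GC was added after the data were seen and was not run for the interaction, since 79.49% of its genes have a coding sequence and a minimum of 80% was set for this check, which the other comparisons passed narrowly (80.35% to 82.03%). No alternative changed the number of members called: 10 between fractions in each genotype and 0 between genotypes and in the interaction. The count of other pathway genes called lower between fractions in control was 2, and became 8 under the authors' scaling alone, 6 with GC centred and 8 with GC centred and the replicate block. Leaving out 1 library gave 0 to 2, with 0 for each retina control replicate, because Rec8 and Espl1 then have too few libraries with 10 scaled counts to be tested. Pairing by replicate block changed no call of a member. In the interaction 8 members then had an unadjusted limma p under 0.05, against 6 without the block. With the replicate block the fold changes are the same, the smallest limma adjusted p of a member was 0.175 in the interaction, and 0.647 in rod TRAP and 0.282 in retina between genotypes, where equal numbers did not deviate together (r from −0.394 to 0.0120). All 12 libraries in 1 fit gave 0.0777 in retina, and leaving out retina knockout replicate 2 gave 0.0926 in the interaction. Other alternatives raised the smallest limma adjusted p of a member. In retina it was 0.785 in TPM, 0.678 with GC centred and 0.937 without control replicate 3. In TPM 9 members were tested in retina, and 0 had an unadjusted limma p under 0.05. In the interaction it was 0.836 in TPM and 0.852 without retina control replicate 3. Directions turned only among small differences. Between genotypes in rod TRAP, the log2 difference of Stag2 became −0.083 in TPM and −0.016 in 1 fit of all libraries, and that of Smc3, Nipbl and Smc4 became 0.027, 0.037 and 0.0047 with GC centred. Leaving out 1 library there gave −0.094 to 0.062 for Smc3, −0.016 to 0.047 for Stag2, −0.088 to 0.094 for Nipbl, −0.14 to 0.058 for Smc4 and −0.29 to 0.023 for Smc5, with the turns for knockout replicate 1 (Stag2, Nipbl, Smc5), knockout replicates 2 and 3 (Smc3), control replicate 1 (Smc3, Nipbl, Smc4), control replicate 2 (Smc3) and control replicate 3 (Stag2). Between genotypes in retina, Smc2 became −0.17 and Smc5 −0.12 with GC centred. Over all genes, calls in rod TRAP, 148 in the report, were 594 without knockout replicate 1, 30 to 36 without a control replicate, 42 without trend and robust settings, 58 in TPM, 91 with GC centred and 94 in 1 fit of all 12 libraries. Calls in retina, 18 in the report, were 1 without knockout replicate 1, 1 without control replicate 3, 4 without knockout replicate 2, 10 without control replicate 1, 3 with GC centred, 33 with no filter, 38 in TPM, 46 with the replicate block and 62 in 1 fit of all 12 libraries. Depth limits Smc2 most, with 5 to 17 scaled counts in retina, and equal scaled totals hide the true depth of each library.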
